A study of Homo sapiens with 4 samples.

Results

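The S100 genes encode small calcium-binding proteins, and 10 of them were followed here in A549 cells, a human lung adenocarcinoma line, with and without overexpression of the deubiquitinase USP12. The members were the rows whose gene name was S100A2, S100A3, S100A4, S100A6, S100A10, S100A11, S100A13, S100A14, S100A16 or S100P, which is 10 of the 50868 genes counted. RNA sequencing covered 4 libraries, 2 from control A549 cells (called control 1 and 2), which per the study carried the empty vector, and 2 from A549 cells overexpressing USP12 (USP12 1 and 2). The model is 1 cell line with a transgene in place of raised endogenous USP12, and the labels do not say that the 2 libraries of a group came from separate cultures, so the p-values measure only the spread between these libraries. The level of USP12 was 15.2 and 34.4 CPM in control 1 and 2 and 1745 and 2235 CPM in USP12 1 and 2 (log2 fold change 6.32 ± 0.57 (SE), adjusted p = 0.0975, edgeR), where CPM are read counts scaled to the library size with TMM factors. In bulk RNA, fewer cells expressing a gene and less RNA per cell cannot be told apart.

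S100 proteins are small and built around a pair of EF-hands, helix-loop-helix folds of which most hold calcium. They usually act as dimers that open on binding calcium and then grip a partner, such as an annexin, a myosin or ezrin. Some are also released from cells and signal through the receptor RAGE. In lung adenocarcinoma the family is known mainly for S100P, S100A4 and S100A6, which have been linked to motility and invasion.

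Each library held between 14280081 and 16305356 counts. The control libraries were unlike each other: the SD of the log2 ratio across the 15222 tested genes was 1.32 between control 1 and 2, against 0.62 between USP12 1 and 2. They also differed by transcript length. Among the 1024 tested genes with a MANE Select transcript (the reference transcript of a gene) of up to 1200 bases, the median log2 difference of control 1 over control 2 was 0.84, and among the 3501 genes over 5000 bases it was -0.74. The members' reference transcripts span 434 to 1172 bases, so all 10 fall in the short class, whose median log2 fold change between USP12 and control was -0.35, against -0.06 over all tested genes. The column heading of control 1 also starts with another date-like prefix than the other 3, so the prefix and that library cannot be told apart. The fold change of each tested member is therefore also given against each control and with a per-library offset for transcript length, an alternative chosen after the data had been seen. Epithelial markers were present, with KRT8 between 2515 and 6075 CPM and EPCAM between 9.70 and 28.5 CPM. The leukocyte marker CD3E, the erythroid marker HBB and the fibroblast marker DCN had 0 counts in every library, which allows up to 0.166 to 0.227 CPM (3 counts, for counting error only). Other markers of these lists were not at 0. The leukocyte marker LYZ had 11 and 27 counts in control 1 and 2 and 1 and 3 in USP12 1 and 2 (log2 fold change -2.98 ± 1.03 (SE), unadjusted p = 0.0265, adjusted p = 0.521, edgeR). The leukocyte marker CD79A had 12 to 17 counts, and the fibroblast marker LUM had 4 to 25 counts. The fibroblast marker PDGFRB had 0 counts in both control libraries and 6 and 11 counts in USP12 1 and 2.

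Point estimates lay under the control level in 8 of the 9 tested members (53.6% of all tested genes), and S100P stood far from the others at a log2 fold change of -4.58. None passed an adjusted p of 0.05 in edgeR's quasi-likelihood test (0 lower and 0 higher, where 0.0% of all tested genes were called in either direction), and 2 had an unadjusted p under 0.05 with a lower estimate (4.55% of all tested genes). S100P was the 1 member called by the edgeR exact test, where 1.72% of all genes were called lower and 1.1% higher, and by the DESeq2 Wald test (1.82% and 0.874%). It was also the 1 member called with the replicate block (1.65% and 1.01%), without the filter on low counts (1.46% and 0.673%) and with block and length offset together (2.04% and 1.07%). With the length offset alone no member was called (0.0315% and 0.0236%). By the study's criterion of p and fold change, read here as an unadjusted p of 0.05 or less with a log2 value no higher than -1, S100P and S100A6 qualified, 2 of 9 tested members against 4.41% of all tested genes, and none qualified as higher (2.92% of all tested genes). The USP12 and control libraries did not overlap in 6 members, all with USP12 the lower (17.0% of all tested genes), and in 0 with USP12 the higher (19.5%). With the length offset these counts were 7 (19.9%) and 2 (20.7%). For a single gene, the smallest p that exact permutation of 2 against 2 libraries allows is 0.333. The median log2 fold change of the 9 tested members was -0.89, with -1.16 against control 1 alone, -0.25 against control 2 alone and -0.57 with the length offset. For all 1024 tested genes of the short class the median was -0.35, with -0.72 against control 1 alone and 0.16 against control 2 alone.

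**Figure D1:**
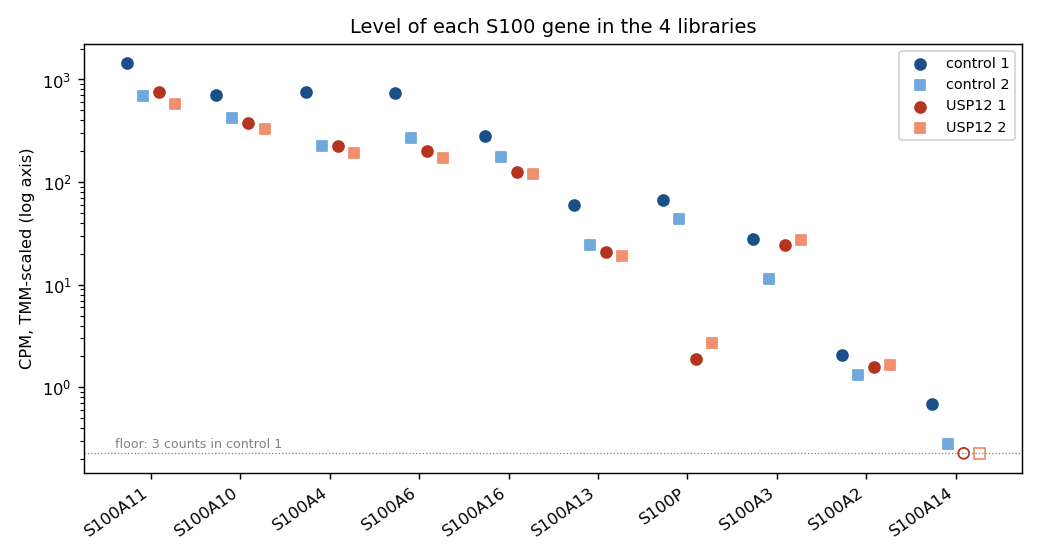
Level of each of the 10 S100 genes (vertical log axis, TMM-scaled CPM) in control 1, control 2, USP12 1 and USP12 2, with genes ordered by mean level. Each point is 1 library, open points stand at the dotted floor for 3 counts or fewer. S100P is the gene whose USP12 points (1.87 and 2.70 CPM) lie far under both control points (66.8 and 43.3 CPM), while for most other genes control 1 stands above the other 3 libraries.

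S100P, a member first found in placenta that binds the membrane linker ezrin and the receptor RAGE, lies on chromosome 4, away from the other 9 members (GRCh38, 6693878 to 6697170, plus strand, ENSG00000163993). It had 883 and 782 counts in control 1 and 2 and 26 and 39 counts in USP12 1 and 2. As levels these were 66.8 and 43.3 CPM, or 55.1 ± 16.6 CPM (SD, n = 2), in control cells and 1.87 and 2.70 CPM, or 2.29 ± 0.587 CPM (SD, n = 2), in USP12 cells. The groups lay far apart, and the gap was wider than the spread within either group. The log2 fold change was -4.58 ± 0.54 (SE, unadjusted p = 0.000124, adjusted p = 0.125, edgeR), or 24.0-fold lower. By rank, S100P was number 14 by p-value and number 75 from the most negative fold change among 15222 genes. Its log2 fold change was -4.83 against control 1, -4.24 against control 2 and -4.16 with the length offset. The S100P adjusted p was 0.116 with the offset, 3.40e-08 with the replicate number as a block, 1.05e-09 in edgeR's exact test and 1.49e-13 in the DESeq2 Wald test.

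Because a share of the family's own counts does not depend on library scaling, S100P was also read that way. It made up 1.64% of the counts of the 10 members in control 1 (95% exact binomial interval 1.53 to 1.75) and 2.33% in control 2 (2.17 to 2.49). In USP12 1 the share was 0.108% (0.0708 to 0.159) and in USP12 2 it was 0.187% (0.133 to 0.256), where the intervals cover counting error only. Both USP12 shares were thus below both control shares by more than that error. Relative to S100A6 in the same library, the S100P count ratio was 0.0901 and 0.159 in control cells and 0.00927 and 0.0158 in USP12 cells.

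The sequences just upstream of 3 members are shown, a choice made after the values were seen. These are S100P, with the lowest fold change, S100A6, the other gene that met the criterion, and S100A3, whose point estimate was higher. Each is the stretch of 250 bases before the RefSeq transcription start (GRCh38.p14), written along the gene's strand, with capitals on matches to the motifs searched. All 10 members matched a RefSeq promoter entry by symbol. S100P (chr4:6693628-6693877, plus strand), S100A6 (chr1:153535992-153536241, minus strand) and S100A3 (chr1:153549259-153549508, minus strand) read as follows.
S100P: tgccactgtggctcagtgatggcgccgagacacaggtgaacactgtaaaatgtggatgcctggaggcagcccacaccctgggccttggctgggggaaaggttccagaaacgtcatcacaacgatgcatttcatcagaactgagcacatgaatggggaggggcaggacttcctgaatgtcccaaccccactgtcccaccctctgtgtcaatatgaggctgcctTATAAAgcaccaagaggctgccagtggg
S100A6: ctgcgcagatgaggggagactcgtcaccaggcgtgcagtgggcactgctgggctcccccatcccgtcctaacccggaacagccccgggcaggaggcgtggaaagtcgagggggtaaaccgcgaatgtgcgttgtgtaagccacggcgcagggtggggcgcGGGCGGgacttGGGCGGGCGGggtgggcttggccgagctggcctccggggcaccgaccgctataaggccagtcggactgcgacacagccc
S100A3: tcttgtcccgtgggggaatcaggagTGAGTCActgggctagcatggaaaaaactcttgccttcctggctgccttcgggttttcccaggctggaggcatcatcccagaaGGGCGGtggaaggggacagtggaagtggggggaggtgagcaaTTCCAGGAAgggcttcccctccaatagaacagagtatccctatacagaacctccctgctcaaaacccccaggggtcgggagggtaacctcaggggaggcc

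Searched on both strands were the TATA box TATAAA, the GC box GGGCGG, the AP-1 element TGANTCA, the STAT element TTCNNNGAA, the SMAD box GTCTAGAC, the cyclic AMP response element TGACGTCA and the NF-κB consensus. The S100P stretch held a TATA box 28 to 23 bases before the start, and none of the other motifs. That of S100A6 held 3 GC boxes, the first 90 bases before the start and the last pair overlapping each other, in a stretch of 70.0% G and C against 55.6% for S100P. The S100A3 stretch held a GC box, an AP-1 element and a STAT element. Across 35116 RefSeq promoter stretches of the same length, 10.7% held the TATA box, 42.6% the GC box, 6.57% the AP-1 element, 6.57% the STAT element, 0.182% the SMAD box, 1.65% the cyclic AMP response element and 5.21% the NF-κB consensus. No member's stretch held the SMAD box or the cyclic AMP response element. A match of letters is a description only and does not mark a used site.

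S100A6 (calcyclin) and S100A4 (metastasin, which binds the heavy chain of non-muscle myosin encoded by MYH9) are near neighbours on chromosome 1. S100A6 (ENSG00000197956, chromosome 1, 153534599 to 153536244) had 742 and 272 CPM in control 1 and 2 and 202 and 171 CPM in USP12 1 and 2. Both USP12 libraries were below both controls, but control 1 stood farther from control 2 than control 2 did from USP12 1. The log2 fold change of S100A6 was -1.44 ± 0.53 (SE, unadjusted p = 0.0333, adjusted p = 0.569, edgeR), -1.96 against control 1 alone, -0.54 against control 2 alone and -0.88 with the length offset. S100A6 did not meet the criterion without control 1, with the offset or with block and offset (-0.87), where its log2 fold change was above -1. It also did not meet it without USP12 1 or without USP12 2, where its unadjusted p was 0.0964 and 0.146 (edgeR). S100A6 also shares exonic sequence with an antisense gene, and the sources do not say whether counting used strand. The row of that gene, ENSG00000238279, held 7 and 2 counts in control 1 and 2 and 0 in both USP12 libraries, against 9803, 4904, 2805 and 2475 counts for S100A6.

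S100A4 (ENSG00000196154, chromosome 1, 153543613 to 153550136) had a log2 difference of 1.75 between control 1 and 2, the widest among the tested members on the log2 scale. Its levels were 760 CPM in control 1, 226.3 CPM in control 2, 225.7 CPM in USP12 1 and 191 CPM in USP12 2. Control 2 and USP12 1 were all but equal, so the lack of overlap between the groups rests on a difference of less than 1 CPM. The log2 fold change was -1.24 ± 0.59 (SE, adjusted p = 0.751), against -1.84 with control 1 alone and -0.12 with control 2 alone. With the length offset the log2 levels of S100A4 were 8.88 and 8.15 in control cells and 7.88 and 7.89 in USP12 cells, a log2 fold change of -0.67 (adjusted p = 0.646, edgeR). The count ratio of S100A6 to S100A4 was 0.976 and 1.20 in control cells and 0.895 and 0.899 in USP12 cells, so the 2 transcripts kept within a narrow range of each other in all 4 libraries.

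**Figure D2:**
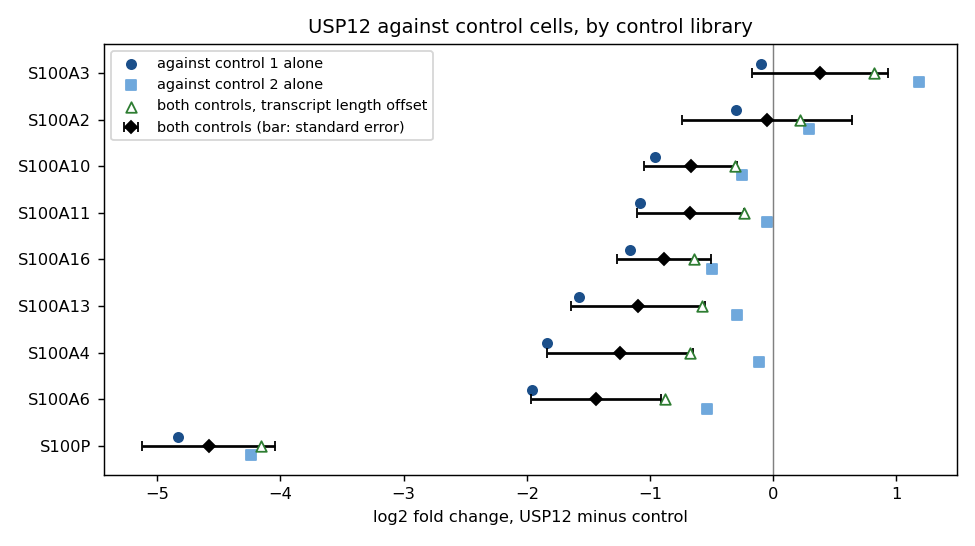
Log2 fold change of the 9 tested S100 genes, USP12 minus control (horizontal axis, genes on the vertical axis). Black diamonds with bars give the estimate from both controls with its standard error, dark circles the value against control 1 alone, light squares the value against control 2 alone and open triangles the value with the transcript length offset. S100P stays between -4.83 and -4.16 throughout, whereas S100A4 runs from -1.84 to -0.12 and S100A3 from -0.10 to 1.18.

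S100A10 and S100A11 are the annexin-binding members, and S100A11 was the most abundant S100 transcript. S100A10 (ENSG00000197747, chromosome 1, 151982915 to 151993859) is the calcium-insensitive light chain of the annexin A2 complex. It had 698 and 420 CPM in control 1 and 2 and 375 and 328 CPM in USP12 1 and 2, both USP12 values being the lower. The log2 fold change of S100A10 was -0.67 ± 0.38 (SE, adjusted p = 0.834, edgeR), -0.96 against control 1 alone, -0.25 against control 2 alone and -0.31 with the length offset. S100A11 (ENSG00000163191, chromosome 1, 152032506 to 152047907), a partner of annexin A1, had 1433 and 689 CPM in control cells and 749 and 581 CPM in USP12 cells. Here the groups overlapped, as USP12 1 was above control 2. Its log2 fold change was -0.67 ± 0.43 (SE, adjusted p = 0.866), -1.08 against control 1, -0.05 against control 2 and -0.24 with the length offset.

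ANXA2, which encodes the heavy chain that S100A10 joins, was set beside it because the pair forms a single complex. ANXA2 had 745 and 1112 CPM in control 1 and 2 and 1821 and 1442 CPM in USP12 1 and 2, with both USP12 values the higher (log2 fold change 1.16 against control 1, 0.55 against control 2 and, with both, 0.81 ± 0.35 (SE), adjusted p = 0.682 from edgeR). The count ratio of S100A10 to ANXA2 was 0.937 in control 1, 0.378 in control 2, 0.206 in USP12 1 and 0.228 in USP12 2. The ratio was lowest in the USP12 libraries, but the 2 controls differed from each other by more than control 2 did from USP12 1.

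S100A13, which helps the export of FGF1 from cells, and S100A16, a widely expressed member, had intermediate levels. S100A13 (ENSG00000189171, chromosome 1, 153618787 to 153631360) had 60.4 and 24.4 CPM in control 1 and 2 and 20.8 and 18.8 CPM in USP12 1 and 2. Control 1 was high and the other 3 libraries lay close together, with a log2 fold change of -1.10 ± 0.54 (SE, adjusted p = 0.779, edgeR), -1.58 against control 1, -0.30 against control 2 and -0.57 with the length offset. S100A13 shares exons with S100A1 on the opposite strand, so its counts are uncertain. S100A16 (ENSG00000188643, chromosome 1, 153606886 to 153613145) had 282 and 174 CPM in control cells and 126 and 121 CPM in USP12 cells. For this gene the USP12 libraries were close to each other and below both controls, with a log2 fold change of -0.89 ± 0.39 (SE, adjusted p = 0.691), -1.16 against control 1, -0.50 against control 2 and -0.65 with the length offset. With the offset, the log2 levels of S100A16 in the 2 controls were 7.70 and 7.69, against 6.99 and 7.10 in USP12 cells.

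S100A3, a zinc- and calcium-binding member best known from the hair cuticle, was the tested member with a higher point estimate. S100A3 (ENSG00000188015, chromosome 1, 153547329 to 153549258) lies within the span of S100A4 on the same strand, without a shared exon. It had 28.1 and 11.4 CPM in control 1 and 2 and 24.1 and 27.4 CPM in USP12 1 and 2. Control 2 was the low library and the other 3 were alike. The log2 fold change of S100A3 was 0.38 ± 0.55 (SE, adjusted p = 0.960, edgeR). It was -0.10 against control 1 alone and 1.18 against control 2 alone, where it passed the test (adjusted p = 0.0357, edgeR, with control 2 assumed to vary as the USP12 libraries do and 4.73% of all genes called higher). With the length offset, the log2 levels were 4.23 and 3.80 in control cells and 4.64 and 5.04 in USP12 cells, a log2 fold change of 0.82 (adjusted p = 0.615), and S100A3 and S100A2 were the 2 members with both USP12 libraries above both controls (20.7% of all genes in that fit).

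Within the family's own counts, the share of S100A3 was 0.691% in control 1 (95% exact binomial interval 0.623 to 0.765) and 0.610% in control 2 (0.530 to 0.699). It was 1.40% in USP12 1 (1.25 to 1.55) and 1.90% in USP12 2 (1.72 to 2.09). Both USP12 shares were above both control shares. The S100A3 level itself, 24.1 and 27.4 CPM in USP12 cells, lay inside the control range of 11.4 to 28.1 CPM, so its share also carries the lower counts of the abundant members. Relative to S100A4, in whose span it lies, the S100A3 count ratio was 0.0370 and 0.0502 in control cells and 0.107 and 0.143 in USP12 cells, to which the same applies.

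The 2 members at the lowest level were S100A2 and S100A14, both known from epithelia. S100A2 (ENSG00000196754, chromosome 1, 153561108 to 153567890), a basal epithelial member, had 27 and 24 counts in control 1 and 2 and 22 and 24 counts in USP12 1 and 2. These counts were nearly equal, and the log2 fold change of -0.05 ± 0.69 (SE, adjusted p = 0.993, edgeR) has a wide error at this depth. It was -0.30 against control 1, 0.29 against control 2 and 0.22 with the length offset. S100A14 (ENSG00000189334, chromosome 1, 153614255 to 153616986) had 9 and 5 counts in control 1 and 2 and 0 and 1 count in USP12 1 and 2, and was not tested because of its low counts. Over the summed counts, 14 in control and 1 in USP12 cells, the ratio of USP12 to control was 0.0788 with a 95% exact counting interval of 0.00186 to 0.518. That interval covers counting error only and leaves out the spread between libraries.

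Summed over the 10 members, the level was 4073 CPM in control 1, 1862 CPM in control 2, 1726 CPM in USP12 1 and 1443 CPM in USP12 2. Both USP12 sums were below both control sums, but control 2 was far nearer to USP12 1 than to control 1. Per kilobase of the reference transcript, S100A11 was the highest in every library, from 1032 to 2545 CPM per kilobase. S100A6, S100A10 and S100A4 held ranks 2 to 4 in every library in varying order. Levels of S100A6 per kilobase ran from 626 to 1709 in control cells and from 395 to 465 in USP12 cells. Those of S100A10 ran from 626 to 1041 and from 489 to 559, and those of S100A4 from 441 to 1482 and from 372 to 440. S100A6 was above S100A4 in each library by this length. Over the union of all exons, mean levels of S100A6 and S100A4 were 521.9 and 521.5 in control cells and 192 and 220 in USP12 cells. Their order thus depends on the length used. S100A16 was at rank 5 throughout, between 103 and 240 CPM per kilobase. S100P moved from rank 6 in both control libraries, at 142 and 92.0 CPM per kilobase, to rank 8 in both USP12 libraries, at 3.97 and 5.74 CPM per kilobase, below S100A13 and S100A3. S100A2 and S100A14 held ranks 9 and 10.

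**Figure D3:**
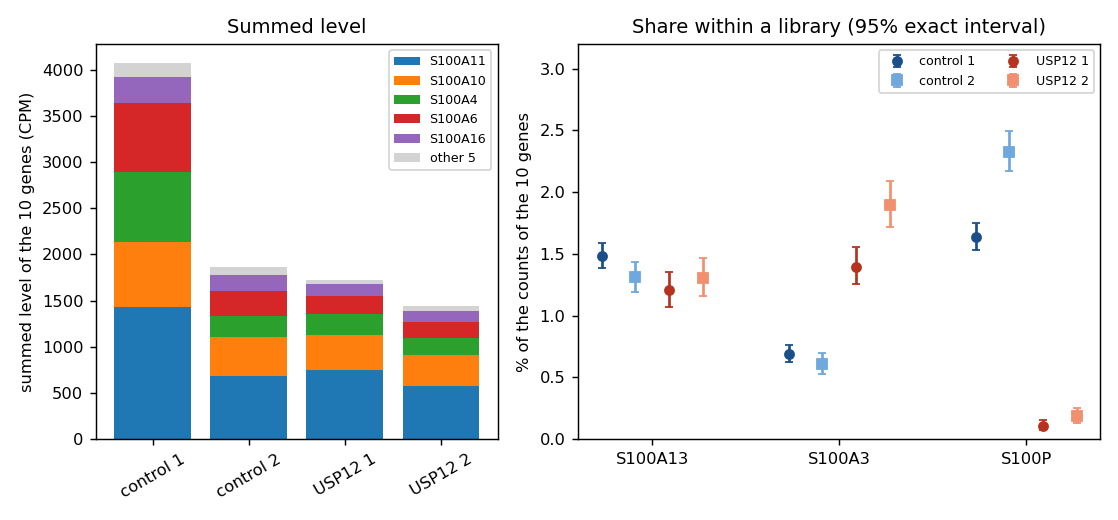
Left, summed level of the 10 S100 genes in each library (vertical axis, CPM), stacked by gene, with control 1 at 4073 CPM and the other 3 libraries between 1443 and 1862 CPM. Right, share of the counts of the 10 genes (vertical axis, percent) taken by S100A13, S100A3 and S100P in each library with 95% exact binomial intervals: S100P goes from 1.64% and 2.33% to 0.108% and 0.187%, and S100A3 from 0.691% and 0.610% to 1.40% and 1.90%.

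Of the 11 other S100 genes, only S100A1 and S100A5 passed the filter on low counts. S100A1, the heart muscle member, had 76 and 22 counts in control 1 and 2 and 2 and 5 counts in USP12 1 and 2 (log2 fold change -3.77 ± 1.09 (SE), unadjusted p = 0.0132, adjusted p = 0.407, edgeR). The S100A1 counts are uncertain, because it shares exons with S100A13 on the opposite strand. S100A13 had 798, 440, 289 and 272 counts in control 1, control 2, USP12 1 and USP12 2. S100A5, known from olfactory neurons, had 31 and 30 counts in control cells and 5 counts in each USP12 library (log2 fold change -2.47 ± 0.79 (SE), unadjusted p = 0.0201, adjusted p = 0.472, edgeR). In both genes the USP12 libraries were below both controls, and the log2 fold changes of S100A1 and S100A5 were -4.47 and -2.67 against control 1 alone, -2.27 and -2.21 against control 2 alone and -3.15 and -2.17 with the length offset. S100A9, a subunit of the neutrophil protein calprotectin, had 40 counts in control 1 and 0 in the other 3 libraries, while its partner S100A8 had 1 count in USP12 2 and 0 elsewhere. S100B had 2 counts in control 2, S100A7 had 1 count in control 1, and S100A7A, S100A7L2, S100A12, S100G and S100Z had 0 in every library, which allows up to 0.166 to 0.227 CPM.

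On chromosome 1, the 9 members lie between 151982915 and 153631360, a span of 1648 kb that holds the genes of the skin barrier between S100A11 and the main S100 group. In this span, 64 other counted genes were matched by identifier, 50 of them had 0 counts in every library and none was tested, with a highest count of 18. The S100 genes were thus the tested genes of that span, 9 of the 16 S100 genes inside it. Along the chromosome, S100A6, S100A5, S100A4, S100A3 and S100A2 follow each other within a short stretch, with log2 fold changes of -1.44, -2.47, -1.24, 0.38 and -0.05. Neighbours therefore had point estimates of both signs.

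**Figure D4:**
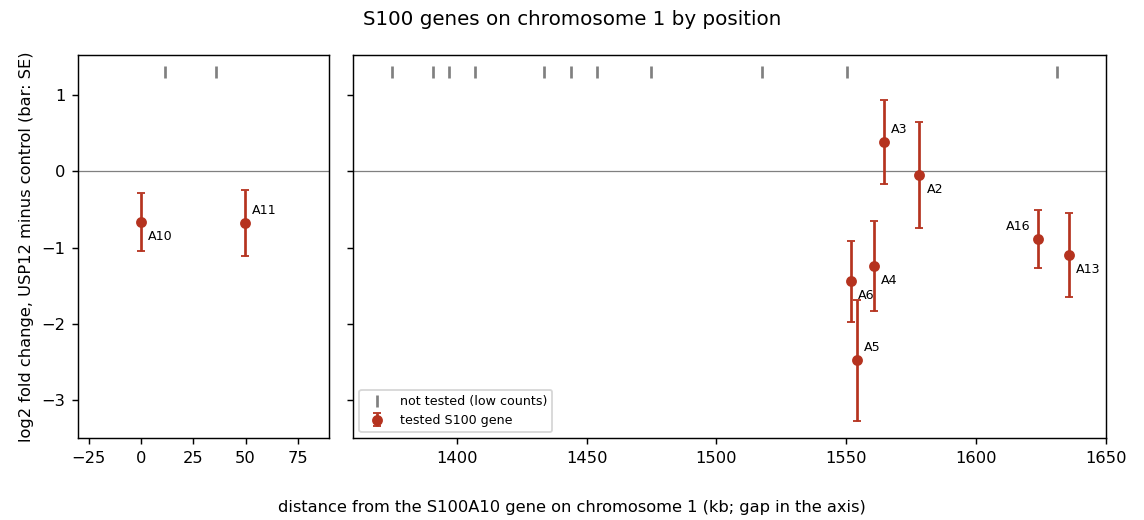
Log2 fold change of the 9 tested S100 genes inside the chromosome 1 span (vertical axis, USP12 minus control, bars are standard errors) by distance from the S100A10 gene (horizontal axis, kb, with a gap). Labels drop the S100 prefix, and grey ticks at the top mark genes with counts too low to test. A5 at -2.47, A6 at -1.44 and A4 at -1.24 stand beside A3 at 0.38 and A2 at -0.05.

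Genes for known S100 partners and receptors had point estimates of both signs. Of 27 partner genes, 23 were tested, 13 had a lower and 10 a higher point estimate, and their median log2 fold change was -0.13, against -0.06 over all tested genes. None passed an adjusted p of 0.05 in edgeR (0 lower and 0 higher). Where 1155 of all 15222 tested genes had an unadjusted p under 0.05, 1 partner gene did. That gene was DLC1, a tumour suppressor that S100A10 binds, with 3.48 and 1.99 CPM in control 1 and 2 and 8.06 and 9.84 CPM in USP12 1 and 2 (log2 fold change 1.71 ± 0.57 (SE), adjusted p = 0.496). EZR, which encodes the S100P partner ezrin, had 774 and 693 CPM in control cells and 540 and 558 CPM in USP12 cells (log2 fold change -0.42 ± 0.31 (SE), adjusted p = 0.894). MYH9, the S100A4 partner, had 880 and 584 CPM in control cells and 834 and 958 CPM in USP12 cells, and its groups overlapped. AHNAK, a scaffold bound by the S100A10 and annexin A2 complex, ranged from 495 to 698 CPM in control cells and from 339 to 496 CPM in USP12 cells.

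Epithelial markers were lower in both USP12 libraries than in both controls in 4 of 5 genes (KRT8, KRT18, KRT19 and EPCAM), against 17.0% of all tested genes. CDH1 overlapped, with 130 and 99.1 CPM in control cells and 76.5 and 134 CPM in USP12 cells. All 5 had a lower point estimate, with a median log2 fold change of -0.84 and -0.34 against control 2 alone, and their summed level, mostly KRT8 and KRT18, was 9638 and 5060 CPM in control 1 and 2 and 4275 and 3976 CPM in USP12 1 and 2. KRT19 had 437 and 114 CPM in control cells and 68.7 and 55.9 CPM in USP12 cells, a log2 fold change of -2.14 (unadjusted p = 0.0169, adjusted p = 0.438, edgeR). For KRT19 the value was -2.78 against control 1 alone, -0.87 against control 2 alone and -1.85 with the length offset. The part of this shift in the S100 values was not tested. The endothelial marker PECAM1 had 5.15 and 3.10 CPM in control cells and 0.288 and 0.970 CPM in USP12 cells, both USP12 values being the lower. Its log2 fold change was -2.69 ± 0.84 (SE, unadjusted p = 0.0178, adjusted p = 0.447, edgeR). It was -2.98 against control 1 alone, -2.28 against control 2 alone and -2.90 with the length offset. VWF, the other gene of the endothelial marker list used here, had 3 counts at most. The summed level of the 4 leukocyte markers was between 1.08 and 2.49 CPM, and that of the 3 fibroblast markers between 0.222 and 1.89 CPM.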

How the data were processed

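Stranded mRNA libraries of A549 cells were sequenced in 4 samples, 2 control and 2 overexpressing USP12. The authors trimmed adaptors and removed ribosomal RNA reads with Seqtk, mapped reads to GRCh38 with HISAT2 2.0.4 and counted uniquely mapped fragments per gene with StringTie 1.3.0, and the deposited values are these raw counts of 50868 genes. The annotation release, and whether counting was strand-specific, are not given in the sources used here.

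Groups and replicate numbers came from the sample titles. The counts were scaled by TMM and filtered by filterByExpr in edgeR 4.0.16 (R 4.3.3), which kept 15222 genes, and compared with its quasi-likelihood test (legacy mode) with Benjamini-Hochberg adjustment over all of them. Standard errors (SE) are approximate, taken as the log2 fold change divided by the root of its F value. A fold change is log2. Log2 CPM and log2 differences between libraries use a prior count of 2, and the log2 levels with the length offset add a smaller constant to the counts. Positions and transcript lengths came from GENCODE 44 (GRCh38), in which 99.2% of tested genes were found by identifier and 83.4% had a MANE Select transcript, and promoters from RefSeq. Exact binomial intervals are at 95%.

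Alternatives were DESeq2 1.42.0 size factors and its Wald test, no filter, at least 10 counts in every library, the edgeR exact test, the replicate number as a block, and leaving out each library. A per-library transcript length offset (lowess), alone and with the block, was added after the data were seen. The members and the gene lists were chosen with earlier results of these data known. The genes named are USP12, the 10 members, the other S100 genes, and of each other list at most 4 with the largest fold change at an unadjusted p under 0.05 and at most 4 with the highest mean level. The markers KRT8, EPCAM and KRT19 and those at or near 0 stand for a check of the cell type. Some values that fall under this rule are not reported here. No 2 libraries held the same counts, and all 4 were kept as separate replicates.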

Additional observations from a re-analysis of the deposited data

How the results depend on the processing

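The replicate numbers are not stated to pair cultures, and same-numbered libraries deviated together only weakly (correlation across genes 0.152), so the replicate block is an alternative only. The log2 fold change of USP12 was 6.32 and its adjusted p passed 0.05 without a filter on low counts (6.33), under the exact test (6.32), the DESeq2 Wald test (6.31), the replicate block (6.43), the transcript length offset (6.30) and block and offset together (6.36), and from 5.85 to 7.06 with a library left out. The number of S100 members called went from 0 to 1, which was S100P, without a filter, with the Wald test, the exact test, the replicate block and block with offset, and from 0 to 7 with a library left out. Without control 1 the called members were S100P, lower, and S100A3, higher, where 5.74% of all genes were called lower and 4.73% higher. Without control 2 they were S100P, S100A4, S100A6, S100A10, S100A11, S100A13 and S100A16, all lower, where 16.3% of all genes were called lower and 15.9% higher. Members lower by the study's criterion went from 2 to 1 with the length offset and with block and offset (4.92% and 5.3% of all genes). They went to 3, with S100A4, without a filter and with the Wald test (4.73% and 5.43% of all genes). With a library left out they numbered from 1 to 6, where the 6 were without control 2 (13.3% of all genes), and those higher from 0 to 1, the 1 being S100A3 without control 1 (7.94%). With the offset, members with both USP12 libraries above both controls went from 0 to 2 (20.7% of all genes in that fit). Those with both below both controls went from 6 to 7 (19.9%). With block and offset these counts of members were the same. The median log2 fold change of the members kept its sign, at -1.16 to -0.25 with a library left out and -0.97 to -0.57 in the other fits. The sign turned for S100A2 and S100A3, though the main fit had called no gene, so a lack of a call does not set them apart. S100A2 was 0.22 with the offset, 0.22 with block and offset and 0.29 without control 1, and S100A3 was -0.10 without control 2. With a library left out, S100A2 ran from -0.30 to 0.29 and S100A3 from -0.10 to 1.18. The replicate block changed no other call among the members. Over all genes, calls went from 0 to 251 lower and 153 higher with the block, 262 and 167 with the exact test, 277 and 133 with the Wald test, 361 and 167 without a filter, and 4 and 3 with the offset. They were 913 and 752 without control 1, 2612 and 2550 without control 2, 28 and 12 without USP12 1 and 28 and 16 without USP12 2. The prior degrees of freedom, the weight of the trend over all genes in a gene's spread, also differed between the quasi-likelihood fits. They were 4.145 in the main fit, 3.622 with the offset, 5.803 without control 1 and 5.273 without control 2. With the block, without a filter, with block and offset and without USP12 1 or USP12 2 they were infinite. Their part in the calls was not tested, and the cause was not tested beyond the length offset. Leaving out a control leaves 1, which is assumed to vary as the other group does.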

Other observations

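The 25 other EF-hand genes measured beside the S100 family, among them calmodulins, calpain subunits and myosin light chains, were all tested. Of these, 16 had a lower and 9 a higher point estimate, with a median log2 fold change of -0.22 and -0.02 against control 2 alone. None passed an adjusted p of 0.05 in edgeR. Where 1155 of all 15222 tested genes had an unadjusted p under 0.05, 1 of these EF-hand genes did. That gene was NUCB2, the precursor of nesfatin, with 72.9 and 86.0 CPM in control 1 and 2 and 43.8 and 28.1 CPM in USP12 1 and 2 (log2 fold change -1.14 ± 0.41 (SE), adjusted p = 0.554). CALM3, a calmodulin gene, had 927 and 374 CPM in control cells and 529 and 428 CPM in USP12 cells, and CAPNS1, the small calpain subunit, had 890 and 524 CPM against 575 and 548.6 CPM, so for both the groups overlapped.

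Likeness of pattern was measured as the Euclidean distance of log2 CPM centred on each gene's mean over the 4 libraries, a description that with 4 points cannot separate a shared course from chance. The 5 tested genes closest to S100P were CDH5 (distance 0.33), MYO1D (0.40), ALOX15 (0.46), MSLN (0.47) and SLPI (0.55). CDH5 had 136 and 96 counts in control 1 and 2 and 2 and 5 counts in USP12 1 and 2. MSLN encodes mesothelin, a surface protein of many adenocarcinomas, and had 164 and 142 counts in control 1 and 2 and 5 and 9 counts in USP12 1 and 2. SLPI encodes a secreted inhibitor of leukocyte proteases of the airway, and had 282 and 154 CPM in control cells and 11.7 and 11.4 CPM in USP12 cells, while ALOX15 had 37 counts in each control library and 0 in both USP12 libraries. The 4 genes closest to S100A3 were AFAP1L1, DDX47, CITED1 and KIF9-AS1, at distances of 0.11 to 0.13, all with control 2 as the lowest library.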
